A study of Ambystoma mexicanum with 20 samples.

Results

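The transcripts of 4 cell surface receptors, NOTCH2, EPHA2, FGFR1 and NGFR, were followed through the first days of axolotl limb regeneration, with and without inhibition of histone deacetylases. A row of the deposited expression table was taken as a member when the study's annotated gene lists paired its transcript with one of these symbols. This gave 6 of the 180605 transcripts in the table: 1 each for NOTCH2 (GFZP01000511.1), FGFR1 (GFZP01117375.1) and NGFR (GFZP01040405.1), and 3 for EPHA2, called here transcript 1 (GFZP01101384.1), transcript 2 (GFZP01133767.1) and transcript 3 (GFZP01161586.1). The symbols rest on the best protein match of each transcript. They were available for 4778 transcripts, each of which the study had listed as changed between control samples, and all 6 receptor transcripts came from the lists for ST control samples: NOTCH2 and EPHA2 transcripts 2 and 3 for 8 against 3 dpa, FGFR1 for 3 and for 8 against 0 dpa, and NGFR and EPHA2 transcript 1 for 8 against 0 and against 3 dpa. The level of a receptor may therefore be spread over further transcripts that carry no symbol here.

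Forelimbs of juvenile axolotls were amputated at the middle of the upper arm, and the outermost tissue of the stump was separated into epidermis and the underlying soft tissue (ST). Each tissue was sequenced in 5 groups: the homeostatic control (0 dpa, days post-amputation), DMSO at 3 dpa (wound healing stage), DMSO at 8 dpa (blastema formation stage), and MS-275 at 3 and at 8 dpa. MS-275 (25 mM), an inhibitor of class I histone deacetylases, was injected beneath the wound epidermis every other day, and DMSO is its vehicle. The labels give DMSO also for the 0 dpa samples, which the study's methods describe as taken immediately after amputation. Every group had 2 replicates, each a pool of 4 limbs from 2 animals, so that no value belongs to a single animal. ST holds connective tissue, muscle, nerve, vessels and blood cells together, and in such bulk samples fewer cells of a type and less RNA per cell cannot be told apart.

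NOTCH2 is bound by Delta and Jagged ligands on neighbouring cells, after which its intracellular part is cut free and acts on transcription in the nucleus. EPHA2 is a receptor tyrosine kinase that is also activated at cell contacts, by membrane-bound ephrin-A ligands, while FGFR1 is the tyrosine kinase that receives secreted fibroblast growth factors. NGFR, known as p75, binds neurotrophins and belongs to the tumour necrosis factor receptor superfamily. In mammals it is carried by Schwann cells and by many mesenchymal cells. In salamander limbs, regrowth depends on the nerve and on fibroblast growth factor signals that pass between the wound epidermis and the cells beneath it.

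Levels are in TPM (a transcript's share of all transcripts, on a common scale), which account for transcript length and add up to the same total in every sample. No sample was scaled to another, the read depth is unknown, and 72566 to 92979 transcripts were above 0 TPM per sample. All 6 receptor transcripts were above 0 TPM in all 20 samples and were tested in both tissues. Differences were tested on the log2(TPM + 0.1) scale with limma over all transcripts of a tissue, and a transcript was called when its Benjamini-Hochberg adjusted p was below 0.05. The median of all transcripts was itself shifted between groups, by up to 0.96 (8 dpa vs. 0 dpa in ST). Each test was therefore repeated on rescaled TPM, in which every sample was divided by its median ratio to the average sample (0.530 and 0.680 for the ST 0 dpa samples, 1.38 to 1.54 for the 8 dpa DMSO samples of both tissues).

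In ST, every receptor stood at its highest level in the DMSO samples of 8 dpa. This control time course is given as a description and without a test, because the members were listed for changes along it. NOTCH2 measured 2.53 and 2.42 TPM at 0 dpa, 2.59 and 2.88 TPM at 3 dpa, and 12.6 and 12.3 TPM at 8 dpa. The 8 dpa pair lay far above both earlier days. The log2 difference was 0.14 between 3 and 0 dpa and 2.15 between 8 and 3 dpa, against medians of 0.46 and 0.47 over all transcripts. On rescaled TPM the first of these was -0.62, so no direction is given for it.

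FGFR1 took another course. Its ST levels were 0.52 and 0.77 TPM at 0 dpa, 4.22 and 3.98 TPM at 3 dpa, and 11.3 and 11.6 TPM at 8 dpa. The first 3 days held the larger step, with log2 differences of 2.52 to 3 dpa and of 1.46 from 3 to 8 dpa. NGFR measured 0.58 and 0.63 TPM at 0 dpa, 1.47 and 1.63 TPM at 3 dpa, and 6.23 and 6.87 TPM at 8 dpa, or log2 steps of 1.23 and 2.01. Its lowest and highest ST groups were separated by more than the distance between any 2 replicates.

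The 3 EPHA2 transcripts differed in their starting level. Transcript 1 went from 0.26 and 0.23 TPM at 0 dpa through 1.08 and 1.29 TPM at 3 dpa to 6.70 and 6.11 TPM at 8 dpa, a log2 difference of 4.24 over the whole course. Transcript 2 began higher, at 0.79 and 0.81 TPM, and reached 1.36 and 1.21 TPM at 3 dpa and 4.51 and 4.60 TPM at 8 dpa (2.37). Transcript 3 was the lowest, with 0.16 and 0.15, 0.30 and 0.39, and 1.62 and 1.55 TPM (2.72). Together they summed to 1.20, 2.82 and 12.5 TPM on average at 0, 3 and 8 dpa, so that at 8 dpa summed EPHA2 lay beside NOTCH2 (12.5 ± 0.240 TPM, SD, n = 2). For transcript 2 the difference between 3 and 0 dpa changed sign on rescaled TPM (-0.09). On rescaled TPM the 8 dpa vs. 0 dpa differences were smaller for all members, from 0.98 (NOTCH2) to 3.09 (EPHA2 transcript 1).

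Over the 10 groups of both tissues, the second highest NOTCH2 level was that of the epidermis at 0 dpa (6.11 TPM), followed by the epidermis at 8 dpa with DMSO (5.86 TPM) and the 2 MS-275 groups of ST (5.61 and 5.51 TPM). These 4 neighbours overlapped. The lowest 4, ST at 3 dpa with DMSO, the epidermis at 8 dpa with MS-275, ST at 0 dpa and the epidermis at 3 dpa with DMSO (2.74 to 2.28 TPM), overlapped as well. This order depended on the scale. On TPM rescaled over all 20 samples, NOTCH2 in ST at 0 dpa averaged 4.23, beside 4.19 in the epidermis at 8 dpa with DMSO, and was not among the lowest.

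For FGFR1 the 4 ST groups of 3 and 8 dpa came first. The 2 MS-275 groups among them (5.92 and 5.85 TPM) overlapped and lay apart from DMSO at 3 dpa (4.10 TPM). The latter overlapped the epidermis at 8 dpa with DMSO (4.08 TPM), and ST at 0 dpa was last and apart. NGFR had 6 overlapping neighbours behind its top group, from ST at 8 dpa with MS-275 (2.53 TPM) to the epidermis at 3 dpa with MS-275 (2.07 TPM). Summed EPHA2 was highest in the 3 ST groups 8 dpa DMSO, 8 dpa MS-275 (7.66 TPM) and 3 dpa MS-275 (5.94 TPM), each apart from the next, and lowest in ST at 0 dpa, which overlapped the epidermis at 3 dpa with DMSO. Rescaled over all 20 samples, summed EPHA2 averaged 2.06 in ST at 0 dpa, above the epidermis at 0 dpa (1.56) and at 3 dpa with DMSO (1.38). On that scale FGFR1 in ST at 0 dpa (0.774 and 1.49) overlapped the epidermis at 3 dpa with DMSO (1.31 and 1.99). The order behind the top group of NGFR also changed on it.

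**Figure D1:**
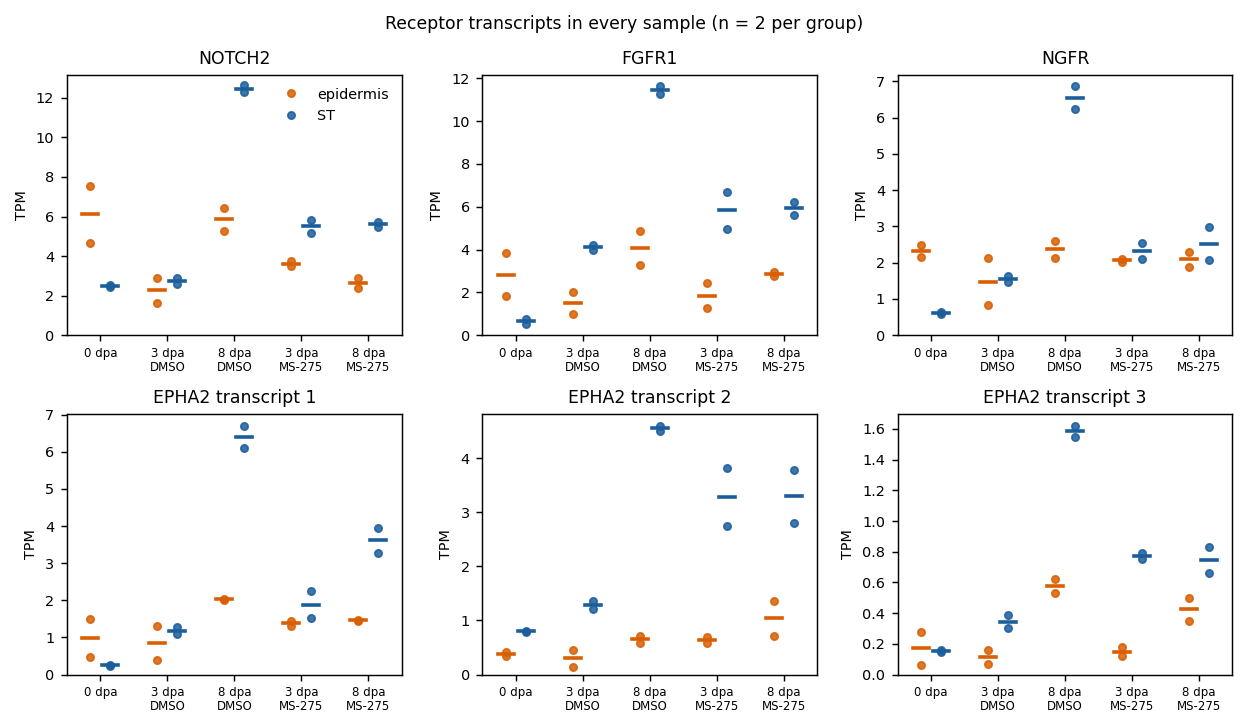
Level of each receptor transcript in TPM (y axis) in every sample, by condition (x axis), with epidermis in orange and ST in blue. Points are replicates and short lines the means of 2. In every panel the ST samples of 8 dpa DMSO lie above all others, with NOTCH2 at 12.6 and 12.3 TPM.

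In ST of 3 dpa, NOTCH2 and EPHA2 transcript 2 stood above DMSO in the MS-275 samples, and FGFR1, NGFR and the other EPHA2 transcripts did not pass the test. The comparison shares its DMSO samples with the lists from which the members came. NOTCH2, NGFR and the EPHA2 transcripts were listed for a level that was low in these 3 dpa DMSO samples against 8 dpa, so the choice of members leans towards MS-275 being higher here, and the tests below are not independent of it. NOTCH2 measured 5.82 and 5.19 TPM with MS-275, above its DMSO level of 2.74 ± 0.205 TPM (SD, n = 2). Its log2 difference was 0.98 (SE 0.18, adjusted p = 0.0327). EPHA2 transcript 2 stood at 3.83 and 2.74 TPM with MS-275, a difference of 1.27 (SE 0.27, adjusted p = 0.0481), and summed EPHA2 rose from 2.82 to 5.94 TPM (1.04, SE 0.21, adjusted p = 0.0400). Of all transcripts tested, 3.48% were called here, 2.86% as higher.

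Among the 4 transcripts that were not called, FGFR1 measured 6.71 and 4.98 TPM with MS-275 (0.49, SE 0.25, adjusted p = 0.319). NGFR measured 2.55 and 2.11 TPM (0.55, SE 0.27, adjusted p = 0.298). EPHA2 transcript 1 stood at 2.24 and 1.53 TPM (0.61) and transcript 3 at 0.75 and 0.79 TPM (0.97). In each of the 6 transcripts both MS-275 samples lay above both DMSO samples, an arrangement that 27.2% of all transcripts tested showed. On rescaled TPM NOTCH2 kept its call (0.90, adjusted p = 0.0469), while EPHA2 transcript 2 (adjusted p = 0.0706) and summed EPHA2 (adjusted p = 0.0554) lost theirs. Neither NOTCH2 (adjusted p up to 0.128) nor EPHA2 transcript 2 (up to 0.176) was called when any of the 8 ST samples of 3 and 8 dpa was left out.

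At 8 dpa the direction was the opposite, and NOTCH2 alone passed the test. All members were listed for a high level in the 8 dpa DMSO samples, so the choice leans towards MS-275 being lower, and the tests of this day are not independent of it either. The standard errors also rest on the 2 DMSO samples of 8 dpa being separate samples: they were more alike than the replicates of any other group, and without counts it could not be tested whether they differed by more than sampling noise. With MS-275, NOTCH2 measured 5.49 and 5.72 TPM against the 12.6 and 12.3 TPM of DMSO, a log2 difference of -1.14 (SE 0.18, adjusted p = 0.0385). The call was lost on rescaled TPM (-0.70, adjusted p = 0.151). It was also lost without either of the 8 dpa DMSO samples, or either MS-275 sample of 3 or of 8 dpa, with adjusted p up to 0.281. Over all transcripts, 1.26% were called at 8 dpa, 0.826% as lower, and the median of all transcripts was -0.33.

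NGFR had the largest difference of the members at 8 dpa but missed the threshold. It measured 2.08 and 2.97 TPM with MS-275, below the 6.23 and 6.87 TPM of DMSO (-1.36, SE 0.27, adjusted p = 0.0565). FGFR1 measured 5.62 and 6.22 TPM with MS-275 (-0.94, SE 0.25, adjusted p = 0.103). For EPHA2, transcript 1 stood at 3.28 and 3.96 TPM (-0.81, SE 0.29), transcript 2 at 3.79 and 2.80 TPM (-0.47, SE 0.27) and transcript 3 at 0.83 and 0.66 TPM (-1.0, SE 0.40), none with an adjusted p below 0.188. Both MS-275 samples were below both DMSO samples for all 6 transcripts, as they were for 42.0% of all transcripts tested. On rescaled TPM EPHA2 transcript 2 overlapped, at 3.49 and 2.46 with MS-275 and 2.94 and 3.08 with DMSO, while the other receptor transcripts stayed lower in both MS-275 samples.

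**Figure D2:**
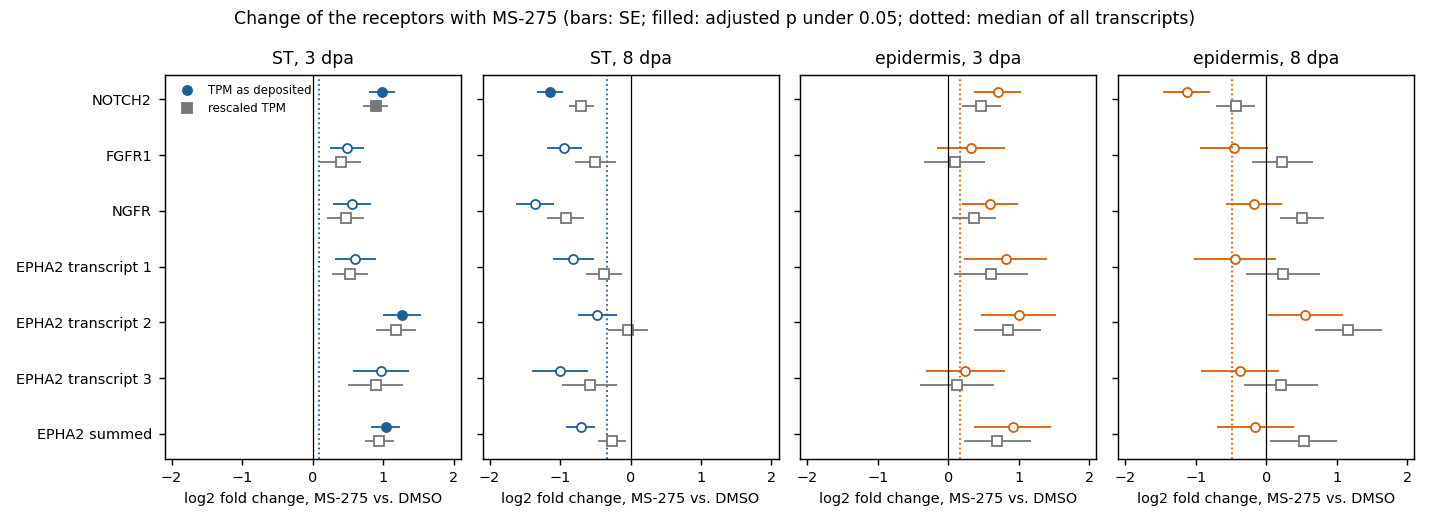
Log2 difference of MS-275 against DMSO with its standard error, per receptor transcript, in each tissue at 3 and at 8 dpa (n = 2 per group). Circles are deposited TPM (filled where adjusted p was below 0.05), grey squares rescaled TPM, and the dotted line is the median of all transcripts. NOTCH2 in ST is filled on both days, at 0.98 and -1.14.

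The reversal between the days was tested as the effect of MS-275 at 8 dpa minus that at 3 dpa. For NOTCH2 in ST it was -2.12 (SE 0.26, adjusted p = 0.0235), in a test that called 1.24% of all transcripts, 1.10% as negative. This value is the difference between 8 and 3 dpa with MS-275 (0.03) less that with DMSO (2.15), and the latter is the change for which NOTCH2 was listed, so the test is not independent of the choice of members. The other 5 transcripts had negative estimates between -1.42 and -1.98 and were not called, although all 6 had an unadjusted p below 0.05, as did 16.9% of all transcripts. Summed EPHA2 was called (-1.74, SE 0.29, adjusted p = 0.0409). Neither held on rescaled TPM, with adjusted p = 0.0681 for NOTCH2 and 0.132 for summed EPHA2.

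Under MS-275 itself, the ST levels of 3 and 8 dpa overlapped for 5 of the 6 transcripts. EPHA2 transcript 1 was higher in both samples of 8 dpa (3.28 and 3.96 TPM) than in both of 3 dpa (2.24 and 1.53 TPM), as were 22.1% of all transcripts. Its log2 difference was 0.92, and mean summed EPHA2 went from 5.94 to 7.66 TPM. NOTCH2 was 5.51 ± 0.446 TPM at 3 dpa and 5.61 ± 0.163 TPM at 8 dpa (SD, n = 2 each), and the replicates of the 2 days overlapped. None of the 6 transcripts was called between the 2 days with MS-275, where 0.0366% of all transcripts were. At an unadjusted p below 0.05 there was 1, EPHA2 transcript 1, beside 10549 of the 87546 transcripts tested. Against 0 dpa, all 6 were called higher with MS-275 at 3 dpa and at 8 dpa, where 18.0% and 16.8% of all transcripts were. Both contrasts use the 0 dpa samples of the lists that supplied members, and on rescaled TPM NOTCH2 and EPHA2 transcript 3 were not called in either. On that scale the mean of NOTCH2 was 4.15 TPM at 0 dpa, and 5.01 and 5.04 TPM with MS-275 at 3 and 8 dpa.

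Summed connective tissue markers in ST, collagens included, moved with the receptors. For all marker lists, only genes with a symbol entered, each listed by the study as changed between control samples. Their course with DMSO is therefore not independent of how the receptors were chosen. The 12 transcripts of 8 connective tissue marker genes summed to 1447 and 1634 TPM at 0 dpa, 2389 and 3692 TPM with DMSO at 3 dpa, and 9365 and 9424 TPM at 8 dpa. With MS-275 they reached 6279 and 4831 TPM at 3 dpa and 5680 and 4880 TPM at 8 dpa. The sum was thus above DMSO at 3 dpa and below it at 8 dpa, as the receptors were, and at least 10 of the 12 transcripts were above 0 in every ST sample. Without the collagen genes the sum overlapped between 0 dpa (685 and 613 TPM) and 3 dpa with DMSO (589 and 771 TPM). With MS-275 it was then 1419 and 903 TPM at 3 dpa, again above DMSO. At 8 dpa it was 1183 and 1249 TPM with MS-275, below the 1757 and 1722 TPM of DMSO. Whether the share of connective tissue cells set the receptor levels was not tested.

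As TPM per 1000 TPM of these connective tissue markers, a ratio formed after the levels had been seen, NOTCH2 in ST of 3 dpa was 1.08 and 0.780 with DMSO and 0.927 and 1.07 with MS-275. The groups overlapped on this scale, as did those of summed EPHA2. FGFR1 and NGFR were lower in both MS-275 samples of 3 dpa, opposite to their TPM. FGFR1 stood at 1.07 and 1.03 against 1.77 and 1.08 with DMSO, and NGFR at 0.406 and 0.437 against 0.615 and 0.441. This order depended on the list: without its collagen genes both overlapped at 3 dpa, as did NOTCH2, and summed EPHA2 was higher with MS-275. At 8 dpa the NOTCH2 ratio was 1.35 and 1.30 with DMSO and 0.966 and 1.17 with MS-275, without overlap. The share of all transcripts whose groups lay apart on such ratios was not worked out for either day. The ratios are therefore a description and no test of connective tissue content. NGFR gave ratios of 0.665 and 0.729 with DMSO at 8 dpa and 0.366 and 0.609 with MS-275, and FGFR1 overlapped (1.20 and 1.23 with DMSO, 0.989 and 1.28 with MS-275). Summed EPHA2 was higher with MS-275 (1.39 and 1.52) than with DMSO (1.37 and 1.30), but this order depended on the list: without its 3 collagen genes the ratios were 7.30 and 7.12 with DMSO and 6.68 and 5.94 with MS-275. Without these genes the other receptors were lower with MS-275 at 8 dpa, NOTCH2 at 4.64 and 4.58 against 7.19 and 7.14, FGFR1 at 4.75 and 4.98 against 6.41 and 6.75, and NGFR at 1.76 and 2.38 against 3.55 and 3.99.

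Endothelial markers followed the receptors too. Their 4 transcripts summed to 6.40 and 2.88 TPM at 0 dpa, 9.71 and 11.7 TPM at 3 dpa and 25.7 and 25.1 TPM at 8 dpa with DMSO, and to at least 13.7 TPM in both samples of 3 dpa and 17.1 and 16.1 TPM at 8 dpa with MS-275. The part of vessels in the receptor levels was not tested. Leukocyte markers (11 transcripts) did not follow the receptors with MS-275. In ST of 3 dpa they summed to 236.5 and 256.6 TPM with MS-275, below the 276.6 and 391.1 TPM of DMSO. At 8 dpa the groups overlapped, at 338.7 and 392.2 TPM with MS-275 and 353.2 and 338.1 TPM with DMSO.

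Markers of muscle and Schwann cells differed from the receptors along the DMSO time course. The 12 muscle transcripts had their lowest sums, 1672 and 1961 TPM, in the ST samples of 8 dpa DMSO, where the receptors were highest, from 14293 and 25919 TPM at 0 dpa. With MS-275 at 3 dpa they summed to 3368 and 2726 TPM, below the 15262 and 5528 TPM of DMSO. With MS-275 at 8 dpa they summed to 5844 and 4978 TPM, above DMSO. Muscle markers thus ran opposite to the receptors on both days. The 8 transcripts of 5 Schwann cell and myelin genes, of interest beside NGFR, summed to 202 and 189 TPM at 0 dpa, where NGFR was lowest, and to 56.1 and 59.6 TPM at 8 dpa with DMSO, where it was highest. At 3 dpa the Schwann cell and myelin sum was 53.5 and 56.1 TPM with DMSO. With MS-275 it was 200 and 169 TPM, higher than DMSO as the receptors were on that day. At 8 dpa it was 76.3 and 40.7 TPM with MS-275, overlapping DMSO. The part of muscle and of Schwann cells in the receptor levels was not tested.

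The 14 transcripts of epidermal markers summed to 546 and 1413 TPM in ST with MS-275 at 3 dpa, against 55.7 and 128 TPM with DMSO. Between 10 and 14 of the 14 transcripts were above 0 per ST sample. In the epidermis samples the same sum was 1617 to 6470 TPM, so the labelled tissues separated on epidermal markers. The part of this epidermal signal in the ST results of 3 dpa was not tested. Beside it, NOTCH2 measured 3.75 and 3.48 TPM and EPHA2 transcript 2 0.69 and 0.58 TPM in the epidermis of the same group, both below their ST levels.

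**Figure D3:**
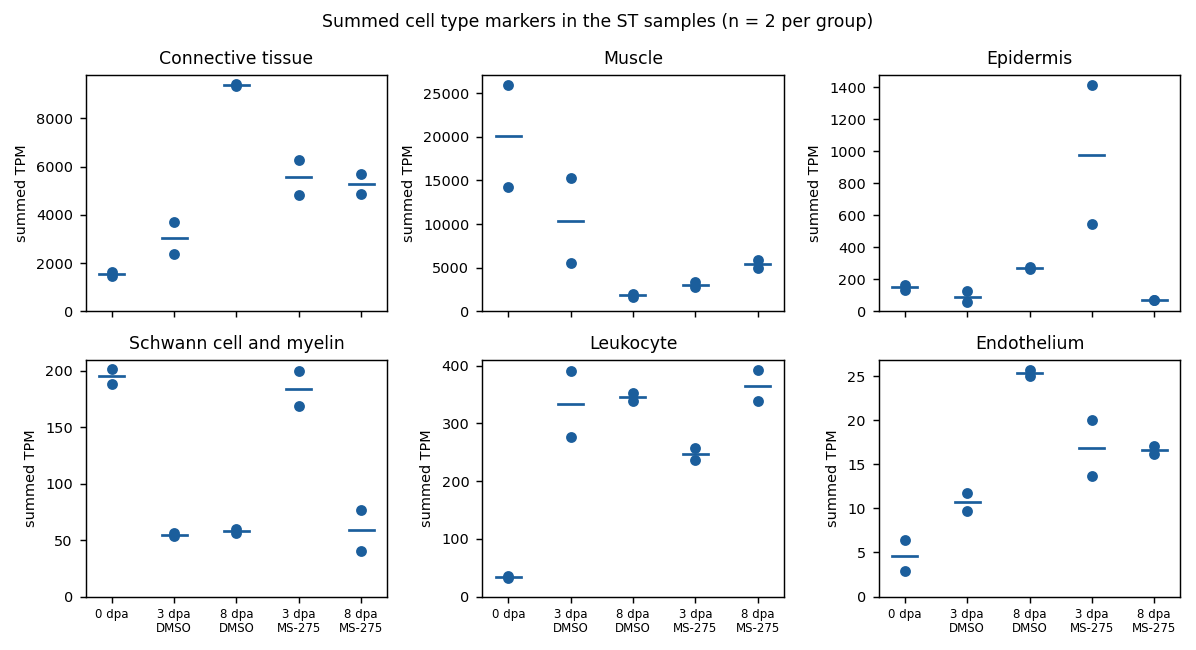
Summed TPM of 6 lists of cell type markers in each ST sample (linear axes), by condition, with points for replicates. Connective tissue markers are highest with DMSO at 8 dpa (9365 and 9424 TPM), and epidermal markers are highest with MS-275 at 3 dpa (546 and 1413 TPM).

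EPHA2 is the one receptor with several transcripts, and their proportions were followed in both tissues. In the epidermis, transcript 1 held 44.3% to 68.5% of summed EPHA2 over the 10 samples. In ST its share was 21.5% and 19.3% at 0 dpa, 39.4% and 44.6% at 3 dpa and 52.2% and 49.8% at 8 dpa with DMSO. Transcript 2 mirrored it, from 65.3% and 68.1% at 0 dpa to 35.2% and 37.5% at 8 dpa.

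With MS-275 at 3 dpa the transcript 1 share in ST was 32.8% and 30.2%, below both DMSO samples of that day, and at 8 dpa it was 41.5% and 53.4%, overlapping DMSO. These shares are descriptions chosen after the levels had been seen. Transcripts of one gene can share reads, so the division of EPHA2 among the 3 is less certain than its sum.

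**Figure D4:**
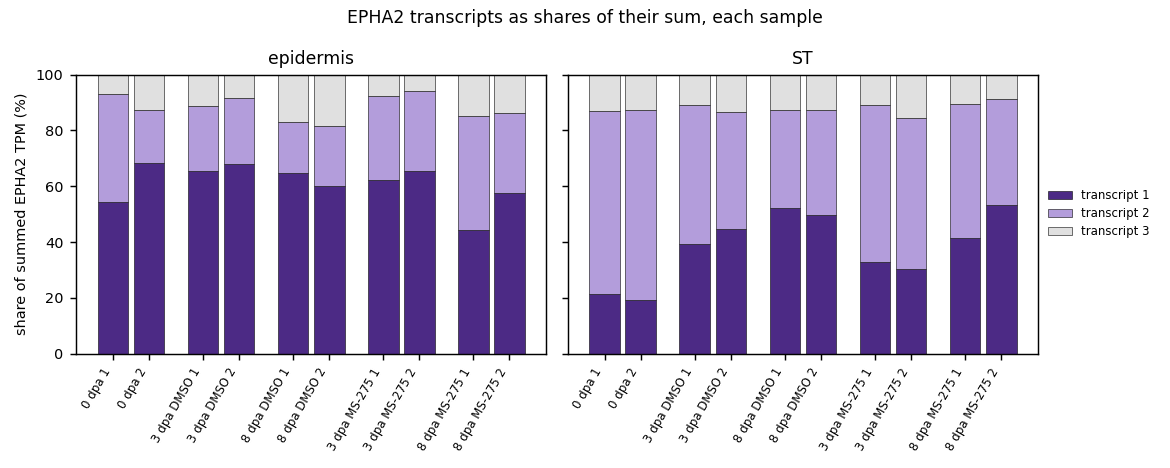
Share of EPHA2 transcripts 1, 2 and 3 in their summed TPM (y axis, percent) for each sample, epidermis and ST side by side. In ST the share of transcript 1 runs from 19.3% and 21.5% at 0 dpa to 49.8% and 52.2% at 8 dpa with DMSO.

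The epidermis, whose samples were not those of the lists that supplied the members, gave no called receptor in any contrast. NOTCH2, the highest of them there on average, measured 4.67 and 7.55 TPM at 0 dpa, 1.64 and 2.91 TPM at 3 dpa, and 5.26 and 6.45 TPM at 8 dpa with DMSO. Both samples of 3 dpa lay below those of the other days. The differences were -1.40 to 3 dpa (SE 0.33, adjusted p = 0.0921) and 1.37 from 3 to 8 dpa (SE 0.33, adjusted p = 0.0522), and neither passed. On rescaled TPM these were -1.18 (adjusted p = 0.0739) and 0.68 (adjusted p = 0.287).

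FGFR1 measured 1.82 and 3.82 TPM at 0 dpa, 0.97 and 2.0 TPM at 3 dpa and 3.26 and 4.89 TPM at 8 dpa in the epidermis. NGFR lay between 0.83 and 2.61 TPM over the 10 epidermis samples. The FGFR1 replicates of 0 dpa overlapped both later days, and those of NGFR overlapped between 3 and 8 dpa. EPHA2 transcript 1 measured 0.48 and 1.50 TPM at 0 dpa, 0.40 and 1.32 TPM at 3 dpa and 2.03 and 2.02 TPM at 8 dpa.

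Between 3 and 0 dpa, 0 of the 6 transcripts were called, beside 1.18% of all transcripts, and NOTCH2 alone had an unadjusted p below 0.05 (17.2% of all). NOTCH2 and NGFR were lower in both 3 dpa samples than in both 0 dpa samples (27.7% of all). From 0 to 8 dpa the count was again 0 (5.68% of all), with EPHA2 transcript 3 at an unadjusted p below 0.05 (22.6% of all). The 3 EPHA2 transcripts were higher in both 8 dpa samples than in both 0 dpa samples (38.6% of all).

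From 3 to 8 dpa 0 of the 6 were called (5.78% of all), and NOTCH2, FGFR1 and EPHA2 transcript 3 had an unadjusted p below 0.05 (25.4% of all). Both 8 dpa samples were above both 3 dpa samples for every receptor transcript but NGFR, an arrangement found in 45.1% of all transcripts.

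With MS-275, epidermal NOTCH2 was 3.75 and 3.48 TPM at 3 dpa and 2.87 and 2.37 TPM at 8 dpa. At 3 dpa both samples lay above DMSO (0.70, SE 0.33, adjusted p = 0.380), and at 8 dpa both lay below it (-1.13, SE 0.33, adjusted p = 0.0626). The change of this effect between the days was -1.83 (SE 0.47, adjusted p = 0.0680). On rescaled TPM the effect at 8 dpa was -0.43 (adjusted p = 0.410) and the change -0.90 (adjusted p = 0.326). For that change 0 of the 6 transcripts were called (4.50% of all), and NOTCH2 was the 1 with an unadjusted p below 0.05 (23.4% of all).

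Against DMSO, 0 of the 6 were called at 3 dpa (0.418% of all) and 0 had an unadjusted p below 0.05 (15.0% of all). NOTCH2 and EPHA2 transcript 2 were higher in both MS-275 samples, as were 29.1% of all transcripts. At 8 dpa 0 were called (12.2% of all), 1 had an unadjusted p below 0.05 (30.1% of all), and NOTCH2, FGFR1 and EPHA2 transcripts 1 and 3 were lower in both MS-275 samples, as were 46.4% of all. Epidermal samples with MS-275 were also set against 0 dpa, with 0 receptor transcripts called at 3 dpa (6.88% of all) and at 8 dpa (7.05% of all), and 0 and 1 at an unadjusted p below 0.05 (24.0% and 23.8% of all). Between the days with MS-275 the count was 0 (0.0363% of all), and 0 unadjusted (12.3% of all).

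No other receptor transcript had an unadjusted p below 0.05 for MS-275 against DMSO in the epidermis. At 8 dpa FGFR1 differed by -0.46 and NGFR by -0.17, with medians of all transcripts at -0.48. On rescaled TPM these became 0.23 and 0.51, so no direction is given for them. EPHA2 transcript 2 measured 1.36 and 0.72 TPM with MS-275 at 8 dpa and 0.58 and 0.72 TPM with DMSO, and its groups overlapped.

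Whether the effect of MS-275 differed between ST and epidermis was tested directly, and 0 of the 6 transcripts was called on either day (over all transcripts, 0.417% were called at 3 dpa and 0.0455% at 8 dpa). At an unadjusted p below 0.05 there were 0 and 1, beside 10.8% and 8.45% of all. For NOTCH2 at 8 dpa the ST effect minus the epidermis effect was -0.01 (SE 0.38). NGFR had the largest such estimate at 8 dpa, -1.19 (SE 0.48, unadjusted p = 0.0275, adjusted p = 0.508).

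The levels of the receptors in ST and epidermis were also set against each other, within each condition. Both tissues were taken from the same set of limbs, and the labels do not say which ST sample shares its limbs with which epidermis sample, so these tests treat the samples as independent. The ST samples of the DMSO time course are those for which the members were listed, low at 0 or 3 dpa and high later. The ST side of the DMSO comparisons therefore leans by the choice. The MS-275 samples were not compared in those lists. Their standard errors, however, are pooled over all 20 samples, the listed ST control samples included. The p-values with MS-275 are therefore not independent of the choice either. At 0 dpa NOTCH2, FGFR1, NGFR and EPHA2 transcript 1 were lower in ST than in the epidermis. The differences, ST minus epidermis, were -1.23 (SE 0.27, adjusted p = 0.00475), -1.90 (SE 0.40, adjusted p = 0.00370), -1.78 (SE 0.34, adjusted p = 0.00187) and -1.48 (SE 0.48, adjusted p = 0.0397). Called transcripts made up 21.7% of all tested, 17.0% as lower in ST. The connective tissue marker sum of 0 dpa was also lower in ST (1447 and 1634 TPM) than in the epidermis (1731 and 4028 TPM). This order depended on the list: without its collagen genes the sums overlapped, at 685 and 613 TPM in ST and 663 and 609 TPM in the epidermis. The part of connective tissue in these differences was not tested. On rescaled TPM FGFR1 (-1.23) and NGFR (-1.11) stayed called, NOTCH2 and EPHA2 transcript 1 did not, and EPHA2 transcript 2 was called higher in ST (1.61, adjusted p = 0.00714).

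By 8 dpa with DMSO the order had turned for the 4 transcripts called lower in ST at 0 dpa. EPHA2 transcript 2 had a positive difference at 0 dpa already (0.93, adjusted p = 0.119, not called). NOTCH2 (1.08, SE 0.27, adjusted p = 0.0135), FGFR1 (1.49, SE 0.40, adjusted p = 0.0206), NGFR (1.43, SE 0.34, adjusted p = 0.0101) and EPHA2 transcripts 1 (1.61, SE 0.48, adjusted p = 0.0335) and 2 (2.64, SE 0.40, adjusted p = 0.000450) were higher in ST. Transcript 3 was not called (1.32, adjusted p = 0.0651). In all, 5 of 6 were called, beside 16.2% of all transcripts, 8.49% as higher, and the same 5 were called on rescaled TPM. Leaving out 1 of the 20 samples gave 1 to 6 calls here and 1 to 4 at 0 dpa.

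At 3 dpa with DMSO only FGFR1 (1.49, SE 0.40, adjusted p = 0.0238) and EPHA2 transcript 2 (1.92, SE 0.40, adjusted p = 0.00466) were called higher in ST, where 13.9% of all transcripts were called, 7.90% as higher. FGFR1 lost its call on rescaled TPM (adjusted p = 0.0704). With MS-275 at 3 dpa, FGFR1 (1.66), EPHA2 transcript 2 (2.19) and transcript 3 (1.81) were called higher, beside 11.3% of all called, 6.80% as higher. With MS-275 at 8 dpa, NOTCH2 (1.07, adjusted p = 0.0200) and EPHA2 transcript 2 (1.62, adjusted p = 0.0174) were called, beside 10.9% of all called, 6.43% as higher, and neither was on rescaled TPM. NGFR, at 2.08 and 2.97 TPM in ST and 2.29 and 1.89 TPM in the epidermis, overlapped between the tissues in that condition.

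**Figure D5:**
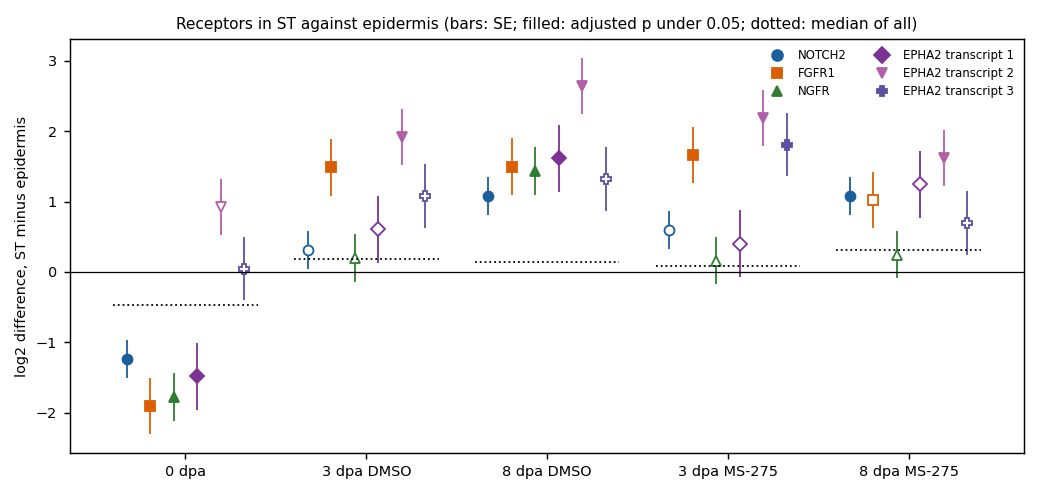
Log2 difference of ST minus epidermis with its standard error, per receptor transcript (marker shapes) and condition (x axis), n = 2 per tissue and condition. NOTCH2 goes from -1.23 at 0 dpa to 1.08 at 8 dpa with DMSO, while EPHA2 transcript 2 is above 0 throughout.

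Ligands, relatives and targets of the 4 receptors were counted from lists of each pathway. Only genes for which a symbol was available entered, each called changed in control samples by the study, so the counts describe that subset. The MS-275 comparisons share their DMSO samples with those lists, so the tests below are not independent of the choice. A transcript listed for a high level at 8 dpa leans towards being lower with MS-275 on that day. One listed for a low level at 3 dpa leans towards being higher. The shares of all transcripts called as higher and as lower with MS-275 were 2.86% and 0.616% in ST of 3 dpa, and 0.826% were lower in ST of 8 dpa. In the epidermis 0.418% were called at 3 dpa, and at 8 dpa 10.2% were lower and 1759 of 88139 transcripts higher. An unadjusted p below 0.05 was found for 19.2% in ST of 8 dpa. For Notch, 10 of 36 listed genes were present, with 12 transcripts. In ST of 3 dpa, 1 was higher with MS-275 (HES5, a transcriptional target of Notch, 3.84, SE 0.83, adjusted p = 0.0493, not called on rescaled TPM), and the median of the list was 0.75 against 0.09 over all transcripts. At 8 dpa 0 of 12 was called in ST (4 at an unadjusted p below 0.05), with a median of -0.14 against -0.33 over all transcripts. PSENEN, a subunit of the protease that cuts Notch, had the highest level of the list (37.2 TPM over the 20 samples).

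In the epidermis at 8 dpa, 6 of 12 Notch list transcripts were lower and 1 higher with MS-275. Here too the DMSO samples are among those of the lists that supplied the genes, so these tests are not independent of the choice. JAG1, a Notch ligand, measured 19.4 and 22.3 TPM with DMSO and 4.14 and 5.09 TPM with MS-275, with no overlap (-2.15, SE 0.22, adjusted p = 0.00314). DLL4, a ligand of the Delta family, fell by 2.26 on the log2 scale (SE 0.40, adjusted p = 0.0137). Among the other calls were 3 NOTCH1 transcripts (-1.21 to -1.38) and HES5, which was higher (0.99). The list's median was -1.06 against -0.48 over all transcripts. On rescaled TPM JAG1, DLL4 and HES5 stayed called, and the NOTCH1 calls were lost.

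Of 21 listed Eph and ephrin genes, 8 were present with 11 transcripts. In ST of 3 dpa, EPHB3 (1.53, SE 0.20, adjusted p = 0.0142) and EPHA3 (2.99, SE 0.55, adjusted p = 0.0311) were higher with MS-275, and the list's median was 0.81. EPHB3 measured 1.60 and 1.66 TPM with DMSO and 5.01 and 4.78 TPM with MS-275. At 8 dpa 3 of 11 were lower (0.826% of all): EPHA4 (-1.87), EPHA7 (-1.85) and an EPHB2 transcript (-1.35). The list's median was -1.0 against -0.33 over all transcripts. EPHA4 measured 6.58 and 5.95 TPM with DMSO and 1.68 and 1.61 TPM with MS-275. On rescaled TPM, EPHB3 stayed called and EPHA3, EPHA4, EPHA7 and EPHB2 did not.

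A transcript of EFNA1, an ephrin-A ligand that binds EPHA2, had the highest level of the Eph and ephrin list (11.6 TPM over the 20 samples). It was lower with MS-275 in the epidermis of 8 dpa (-1.29, SE 0.20, adjusted p = 0.00919), as was an EPHB2 transcript (-1.08). Neither was called on rescaled TPM. Another EFNA1 transcript, written efna1 below, was not called for MS-275 against DMSO in either tissue. At 3 dpa in the epidermis 0 of 11 were called (4 at an unadjusted p below 0.05). EFNA5, another ephrin-A ligand, was lower in the epidermis at 8 than at 3 dpa with DMSO (-2.45, adjusted p = 0.0449, not called on rescaled TPM). The list holds genes that the study listed as changed between control samples, so that test is not independent of the choice.

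Of the FGF list, 16 of 37 genes were present, each with 1 transcript. In ST of 3 dpa FLRT2, a membrane protein that binds FGF receptors (1.07, SE 0.23, adjusted p = 0.0478), and the FGF carrier proteins FGFBP1 (2.77) and FGFBP2 (2.74) were higher with MS-275, and SPRED1, an inhibitor of signalling downstream of receptor tyrosine kinases, was lower (-1.42, SE 0.29, adjusted p = 0.0423). All 4 were called on rescaled TPM too. FGFBP1 measured 10.5 and 23.9 TPM in those ST samples and 54.6 and 78.8 TPM in the epidermis of the same group, and it was high in ST where the epidermal markers were. At 8 dpa 0 of 16 were called in ST (9 at an unadjusted p below 0.05). In the epidermis of 8 dpa FGF12 (4.16) and FGFBP1 (2.86) were higher, and ETV4, a transcription factor induced by FGF signals (-1.25), and CNPY1 (-1.10) were lower, of which FGF12 and FGFBP1 stayed called on rescaled TPM.

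For NGFR, 10 of 25 listed neurotrophin genes and TNF receptor relatives were present, with TNFRSF1A at the highest level (24.9 TPM over the 20 samples). TNFRSF9 was higher with MS-275 in ST of 3 dpa (1.56, SE 0.33, adjusted p = 0.0445, not called on rescaled TPM), and 0 of 10 were called at 8 dpa (1 at an unadjusted p below 0.05). In the epidermis TNFRSF21 was higher at 3 dpa (1.45, adjusted p = 0.0351, not called on rescaled TPM). At 8 dpa TNFRSF10B (2.21) and TNFRSF26 (2.14) were higher there, and the sorting receptors SORL1 (-2.37) and SORT1 (-1.06) and TNFRSF19 (-1.54) were lower. On rescaled TPM the calls of SORT1 and TNFRSF19 were lost. SORT1, named after its values had been seen, is known in mammals as a partner of NGFR in binding the precursors of neurotrophins. In the epidermal time course TNFRSF6B (2.46, adjusted p = 0.00216) and TNFRSF1B (1.86, adjusted p = 0.0104) were higher at 8 than at 0 dpa with DMSO. They were 2 of the 6 members of the list that were called higher there, beside 4.80% of all transcripts. These tests are not independent of the list, whose genes the study had listed as changed between control samples, those of the epidermis included.

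From 3 to 8 dpa in the DMSO epidermis, where 5.30% of all transcripts were called higher and 0.481% lower and none of the 4 receptors was called, 5 of 12 Notch, 7 of 10 NGFR-related, 3 of 11 Eph and ephrin and 1 of 15 FGF transcripts were higher, and 1 of each list was lower. These counts are a description, since the lists hold genes that the study listed as changed between control samples, those of the epidermis included. On rescaled TPM the counts of higher transcripts were 0, 1, 0 and 1.

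The transcripts whose pattern was most like that of each receptor were named by Pearson's r of log2(TPM + 0.1) over the 20 samples, among 3908 transcripts with a symbol. For NOTCH2 they were LOC106733090 (0.946), BMPR1A (0.925) and TP53BP2 (0.915). FGFR1 was most like ATP2B4 (0.960), COL12A1 (0.953) and efna1 (0.952), and NGFR most like HDAC7 (0.934), EPHB3 (0.925) and FLNA (0.925). For EPHA2 the nearest were COL24A1, FLNA and PAPSS2 (0.945 to 0.943) for transcript 1, Ncam1, ALDOC and PTPRS (0.983 to 0.976) for transcript 2, and CPZ, Abtb2 and COL12A1 (0.952 to 0.942) for transcript 3. On rescaled TPM FGFR1 and EPHA2 transcript 2 kept these neighbours. For NOTCH2, SEMA5A (0.839) replaced TP53BP2, with LOC106733090 at 0.877. For NGFR, EPHA2 transcript 1 (0.806) replaced FLNA, with HDAC7 at 0.851. EPHA2 transcripts 1 and 3 each changed a neighbour. All candidates, like the receptors, were listed as changed between control samples, so high r is not independent of the choice.

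Among the receptors themselves, r between pairs of transcripts ran from 0.563 to 0.917 over the 20 samples and from 0.812 to 0.965 over the 10 ST samples. Over the 10 epidermis samples the range was 0.205 to 0.858. On rescaled TPM the ranges were 0.359 to 0.850 over all samples, 0.439 to 0.914 in ST and -0.009 to 0.820 in the epidermis. All these values share the samples and their TPM scaling, and they are given as descriptions.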

How the data were processed

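RNA from 20 samples (10 of epidermis, 10 of ST) was sequenced. Both tissues came from the same set of limbs, and the labels do not tie samples of one tissue to those of the other. Per the study's methods, the authors used cutadapt to trim reads, bowtie2 to align these to an axolotl transcriptome and RSEM to estimate transcript levels, and the deposited table holds TPM. All 20 columns were used (columns of other series, 0). limma 3.58.1 (R 4.3.3) was fitted to log2(TPM + 0.1) with 5 groups per tissue, or 10 groups for ST against epidermis, a trended prior variance and two-sided tests. The tests covered transcripts above 0 TPM in 5 or more of a tissue's 10 samples (epidermis 88139, ST 87546, both tissues 96627), with Benjamini-Hochberg adjustment over all of them. Within a tissue, median ratios used the transcripts above 0 in all 10 of its samples. For ST against epidermis and for correlations they used the 39272 transcripts above 0 in all 20 samples. The fit was tested on simulated data. Alternatives were another pseudocount, filter, prior variance, sample set and scaling, a replicate block, and each replicate left out.

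The receptors, pathway and marker lists were chosen with earlier results of these data known. In the text, all 6 receptor transcripts were named, with the 3 transcripts of highest r per receptor, the highest transcript of each pathway list, and up to 8 of each list, by size of change, that were called for MS-275 against DMSO or in the epidermal time course. A named item of the Notch list is not reported here. Symbols came from shortened copies of the study's lists, from which no value was taken. Separate pools within a tissue count as replicates, so that p-values measure the spread between 2 pools per group. Replicates were compared over 5835 transcripts of mean TPM of at least 10, after the median log2 difference of each pair was subtracted. The median absolute log2 difference was then 0.0844 for ST 8 dpa DMSO and 0.165 to 0.475 for the other groups. Without counts this likeness could not be tested against sampling noise, and the 2 were counted as 2.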

Additional observations from a re-analysis of the deposited data

Results flagged for a closer look

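The effect of MS-275 on NOTCH2 in ST differed between the days, with an interaction of -2.12 on the log2 scale (SE 0.26, adjusted p = 0.0235, limma, n = 2 per group). NOTCH2 was higher with MS-275 in both samples of 3 dpa and lower in both samples of 8 dpa. The adjusted p was 0.0404 with a replicate block, 0.0681 on rescaled TPM and 0.0595 without the variance trend, and it ranged from 0.0145 to 0.139 when 1 ST sample was left out. The estimate was between -2.20 and -2.04 when 1 ST sample was left out and -1.59 on rescaled TPM. It equals the difference between 8 and 3 dpa with MS-275 (0.03) less that with DMSO (2.15), and NOTCH2 was listed for the latter, so the test is not independent of how the members were chosen.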

How the results depend on the processing

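Most values of single receptors kept their direction and side of the threshold (1405), while 92 lost and 33 gained a call and 31 changed sign. Larger moves in the counts of called receptor transcripts are given here. Beyond the smaller numbers of samples or transcripts in some fits, their cause was not tested. Moves that were small against the count are left out. Among these, NOTCH2 and EPHA2 transcript 3 lost their calls on rescaled TPM for MS-275 at 3 and at 8 dpa vs. 0 dpa in ST. For MS-275 at 3 dpa in ST the count of 2 became 1 on rescaled TPM, with TPM above 0 in any sample as the filter, or with all 20 samples in one model, and 0 without the variance trend. At 8 dpa the count of 1 became 0 on rescaled TPM or without the trend, 3 with a pseudocount of 1, and 2 with a mean TPM of at least 1 or all 20 samples. NGFR joined NOTCH2 in the last 3 fits (adjusted p = 0.0233, 0.0262 and 0.0392). For the change of the effect between the days in ST, 1 became 0 on rescaled TPM or without the trend, 3 with a pseudocount of 1 or a mean TPM of at least 1, and 2 with all 20 samples. In the epidermis, counts of 0 became 1 with a mean TPM of at least 1 or all 20 samples for MS-275 at 8 dpa, for its change between the days, for 8 dpa with MS-275 vs. 0 dpa and for 3 vs. 0 dpa. For 8 vs. 3 dpa they became 1 with a pseudocount of 1 or a mean TPM of at least 1 and 3 with all 20 samples. Between tissues, rescaled TPM gave 1 for 2 at 3 dpa with DMSO and 0 for 2 at 8 dpa with MS-275.

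Without 1 sample, the counts ran from 0 to 2 for MS-275 at 3 dpa, at 8 dpa and for its change in ST. In the epidermis they ran from 0 to 1 for MS-275 at 8 dpa, for its change and for 8 dpa with MS-275 vs. 0 dpa, and from 0 to 2 for 8 vs. 3 dpa. Between tissues they ran from 1 to 4 at 0 dpa, 0 to 2 at 3 dpa with DMSO, 1 to 6 at 8 dpa with DMSO, 1 to 3 at 3 dpa with MS-275 and 0 to 2 at 8 dpa with MS-275.

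Signs changed on rescaled TPM for MS-275 in the epidermis of 8 dpa (FGFR1 0.23, NGFR 0.51, EPHA2 transcript 1 0.23, transcript 3 0.21, summed EPHA2 0.53) and in its time course (EPHA2 transcript 1 at 3 vs. 0 dpa 0.0016, NGFR at 8 vs. 0 dpa -0.43). Between tissues they changed for NOTCH2 (-0.015) and NGFR (-0.11) at 3 dpa with DMSO, for NGFR with MS-275 at 3 (-0.032) and 8 dpa (-0.17) and for summed EPHA2 at 0 dpa (0.50), and with a pseudocount of 1 for EPHA2 transcript 3 at 0 dpa (-0.012). Without 1 sample, sign changes gave ranges of -0.17 to 0.80 (FGFR1), -0.043 to 1.22 (NGFR) and -0.067 to 0.55 (EPHA2 transcript 3) for MS-275 in the epidermis of 3 dpa. At 3 vs. 0 dpa the EPHA2 transcripts 1, 2 and 3 ran from -0.95 to 0.56, -0.98 to 0.24 and -0.85 to 0.39, and at 8 vs. 0 dpa NOTCH2 from -0.37 to 0.31 and NGFR from -0.11 to 0.17. Between tissues the ranges were -0.58 to 0.67 for EPHA2 transcript 3 at 0 dpa, -0.088 to 0.70 for NOTCH2, -0.44 to 0.83 for NGFR and -0.15 to 1.36 for EPHA2 transcript 1 at 3 dpa with DMSO, and -0.0006 to 0.49 for NGFR at 8 dpa with MS-275.

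Replicate numbers did not pair the samples, whose groups within a tissue are separate pools: over 21 comparisons the correlation of same-numbered deviations ran from -0.10 to 0.14. With the number as a block, 0 receptor transcripts were called for MS-275 in ST at 3 dpa and 0 at 8 dpa, with adjusted p = 0.0612 and 0.0769 for NOTCH2. For ST 8 dpa with MS-275 vs. 0 dpa, 6 were called without a block, with it and with crossed pairs, an alternative chosen after seeing the data. With 2 pools a group, unknown depth and receptor levels of 0.06 to 12.6 TPM, small differences were not detectable, and EPHA2 transcript 3 was not tested at a mean TPM of at least 1.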
